A study of Mus musculus with 13 samples.

Results

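The comparison described here is between sorted round spermatids of knockout (KO) and heterozygous (Het) mice at the Wfdc15a locus, in KO replicates 2 and 3 (KO2, KO3) against Het replicates 1 and 2 (Het1, Het2). These 4 of the 13 libraries of the study were chosen by their overall expression profile: among the round spermatid libraries they resemble each other, and they stand apart from both wild-type (WT) libraries and KO replicate 1 (KO1). All mice were at postnatal day 25, and the only treatment named in the labels is the cell sort itself. The study profiled whole testis (2 WT, 1 Het and 3 KO libraries) and round spermatids (2 WT, 2 Het and 3 KO libraries, each of 100 to 200 cells sorted by DNA content with Vybrant DyeCycle Green) by Smart-seq2, which copies whole polyadenylated transcripts without recording the strand. Its stated aim was the function of Wfdc15a in spermatogenesis. The labels do not describe the KO allele, the strain or littermates, and nothing in them tells whether 2 libraries of one genotype stem from different animals. The p-values below therefore reflect the spread among these particular libraries, part or all of which may be technical.

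Round spermatids are the haploid cells that follow meiosis. They transcribe the genes of the acrosome and flagellum, store much of this mRNA for later use, and then replace histones by protamines as they elongate. Sertoli cells nurse all germ cell stages from within the tubule, while Leydig cells, fibroblast-like stromal cells, macrophages and vessels lie between the tubules. Wfdc15a encodes a small protein with a WAP domain, a fold found in several secreted inhibitors of serine proteases.

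Levels are given in RPM, the reads of a gene scaled to a common library size,, and differences are KO minus Het on the log2(RPM + 1) scale, which understates changes of low genes. The 4 libraries were scaled to 10825690 to 17069475 reads, and 21498 to 23092 genes had a read in each. In a principal component analysis of the 7 round spermatid libraries the first component (55.6% of the variance) put WT1, WT2 and KO1 between -73.5 and -60.9 and the 4 libraries compared here between 44.8 and 60.6. The second component (13%) put the WT and Het libraries between 21.0 and 22.7, KO2 at -4.81, KO3 at -31.4 and KO1 at -51.8. The labelled cell type was checked against defining markers: the summed level of 10 round spermatid markers was 1848 and 1844 RPM in Het1 and Het2 and 1963 and 1639 RPM in KO2 and KO3, against 820 to 900 RPM in the testis libraries Het1, KO2 and KO3. The 6 spermatocyte markers were not absent from the sort, at 761 to 930 RPM, against 1500 to 1673 RPM in those testis libraries. Nor were stromal markers, whose 6 genes summed to 534 and 477 RPM in Het1 and Het2 and 621 and 1059 RPM in KO2 and KO3. In testis Het1, KO2 and KO3 they summed to 739, 757 and 1219 RPM. The 6 Sertoli markers were further below testis, at 52.5 to 143 RPM against 1293 to 1378 RPM. The pairs differed in spread: of 11106 genes with a mean of at least 5 RPM, 301 differed at least 2-fold between Het1 and Het2, and 652 between KO2 and KO3.

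Wfdc15a itself, on chromosome 2 from 164198863 to 164200130 of mm10, was at 65.0 and 71.5 RPM in Het1 and Het2 and at 67.4 and 48.1 RPM in KO2 and KO3. KO2 lay between the Het libraries. The difference of -0.26 had an exact two-sided permutation p of 0.667, where 2 libraries against 2 cannot go below 0.333. Reads of the gene were thus present in both libraries labelled KO, and its level did not separate them from the Het libraries. In the sorted libraries not compared, WT was at 267 and 234 RPM and KO1 at 97.9 RPM. The Het, KO2 and KO3 libraries thus all lay below KO1 and WT. Testis levels were 212 and 207 RPM in WT, 116 RPM in KO1, 48.4 RPM in Het1, 36.8 RPM in KO2 and 44.3 RPM in KO3. Of 43 other genes tested within 1 Mb, 2 were higher at an unadjusted p under 0.05 and 0 lower, against 2.89% and 5.65% of all genes. The 2 higher genes were Ctsa, the lysosomal cathepsin A, and Sdc4, a heparan sulfate proteoglycan of the cell surface.

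Across 17008 genes tested, 4 passed an adjusted p of 0.05. Clu was the 1 gene that rose (0.00588% of genes tested), and Gm10800, Gm10801 and Gm21738 were the 3 that fell (0.0176%). At an unadjusted p under 0.05, 491 genes were higher (2.89%) and 961 were lower (5.65%). The lower genes made up 66.2% of these, a split that depended on scaling: 52.2% with each library centred on its median and 54.3% after quantile normalization. The groups did not overlap for 2839 genes that were higher (16.7%) and 3576 that were lower (21.0%). With 2 libraries a group, such separation is common without any difference between genotypes. The median difference over all genes was -0.02. These counts rest on few libraries. Without Het1 limma made 0 calls (729 genes at an unadjusted p under 0.05) and without Het2 it made 1, while it made 461 without KO2 and 99 without KO3. In the first 2 of these fits KO2 and KO3 are the only pair from which the spread can be taken.

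The 3 genes that fell are predicted gene models of GENCODE, typed there as protein-coding, whose transcripts share repeated sequence. Gm10800 lies at chr2:98666547-98667301 on the minus strand, Gm10801 at chr2:98662237-98664083 on the plus strand, and Gm21738 at chr14:19415857-19418930 on the minus strand of mm10. The stretch of 254 bases around the longest sequence common to the 3 transcripts is shown 5′ to 3′ from the GENCODE M21 transcripts, because it shows how alike the called genes are, with the 54 common bases in capitals.
Gm10800: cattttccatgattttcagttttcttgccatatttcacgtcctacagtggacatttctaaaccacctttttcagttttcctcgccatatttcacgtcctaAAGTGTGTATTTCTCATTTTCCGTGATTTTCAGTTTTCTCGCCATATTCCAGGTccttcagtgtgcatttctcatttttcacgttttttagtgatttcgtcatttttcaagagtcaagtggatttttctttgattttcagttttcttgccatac
Gm10801: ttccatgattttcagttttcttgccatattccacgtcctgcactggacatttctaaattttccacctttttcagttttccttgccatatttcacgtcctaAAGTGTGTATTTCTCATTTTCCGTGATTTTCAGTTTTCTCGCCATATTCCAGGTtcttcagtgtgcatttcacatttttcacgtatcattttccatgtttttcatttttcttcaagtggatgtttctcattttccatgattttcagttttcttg
Gm21738: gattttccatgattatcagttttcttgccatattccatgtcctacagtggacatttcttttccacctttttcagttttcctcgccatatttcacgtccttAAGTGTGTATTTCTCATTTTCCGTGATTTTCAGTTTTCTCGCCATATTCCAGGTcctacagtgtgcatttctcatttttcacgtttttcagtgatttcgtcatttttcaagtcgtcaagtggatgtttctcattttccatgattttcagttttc
The commonest distance between repeated runs of 12 bases was 225 bases in Gm10800, 231 in Gm10801 and 234 in Gm21738. As background, mouse pericentromeric heterochromatin is built from tandem arrays of a major satellite repeat with a unit of similar length. Of the 20-base words of the Gm10800 transcript, 49.6% also occurred in Gm10801 and 35.9% in Gm21738. The 54-base sequence, searched as printed and as its reverse complement, occurred in transcripts of 7 of 55341 GENCODE genes (0.0126%). How the authors' counting divided reads among these related sequences is uncertain, so the 3 genes may not be independent observations.

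Gm10800 was at 746 and 627 RPM in Het1 and Het2 and at 236 and 165 RPM in KO2 and KO3. The Het libraries were 3.42 times as high on average (difference -1.79, SE 0.16, limma adjusted p = 0.000116). Gm10801 was at 121 and 106 RPM in Het against 25.9 and 30.7 RPM in KO (difference -1.97, SE 0.21, limma adjusted p = 0.000583). For both genes every Het library lay far above every KO library. Gm21738 was at 122 and 91.9 RPM in Het against 32.8 and 34.1 RPM in KO (difference -1.63, SE 0.21, limma adjusted p = 0.00435). Leaving out Het1 ended all 3 calls and leaving out Het2 ended those of Gm10801 and Gm21738, while over the alternatives run the values stayed between -2.08 and -1.43. In the libraries that were not compared, Gm10800 was at 360 and 361 RPM in WT, between the Het and KO levels, while KO1 was at 230 RPM.

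The sequence relatives of these genes had values on the same side. Outside the 3 called genes, 9 genes of the table shared at least 100 words of 20 bases with them, all on chromosome 9, and 5 of the 9 reached the level for testing. All 5 were lower in KO2 and KO3 with no overlap of the groups, against 21.0% of all genes. They were picked for sequence shared with the called genes and may share reads with them. They may thus not be independent observations, and the share over all genes is no test of them. Their median difference was -1.33, and none passed the adjusted threshold. The summed level of the 9 was 58.9 and 56.8 RPM in Het1 and Het2 and 20.2 and 21.4 RPM in KO2 and KO3. It was 22.3 and 28.2 RPM in WT and 23.2 RPM in KO1, so the Het libraries stood above all 5 others. Gm33838, a predicted gene chosen after its values were seen, was not among the genes found to share at least 100 such words. It was at 39.0 and 35.2 RPM in Het against 14.4 and 12.6 RPM in KO.

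The same repeat-like genes stood apart in whole testis, where no library is shared with the sorted cells. Gm10800 was at 2237 RPM in the Het1 testis library and at 89.2 and 137 RPM in those of KO2 and KO3. The difference was -4.33 for Gm10800, -4.05 for Gm10801 and -3.79 for Gm21738. The Het group of testis is 1 library, and limma made 0 calls there (0% higher and 0% lower of 18570 genes tested, 522 at an unadjusted p under 0.05), with an adjusted p of 1 for these 3 genes. The testis WT libraries were far apart, at 263 and 802 RPM for Gm10800, and KO1 was at 158 RPM. In both preparations the highest values of Gm10800 came from Het and the lowest from KO, with WT between them.

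**Figure D1:**
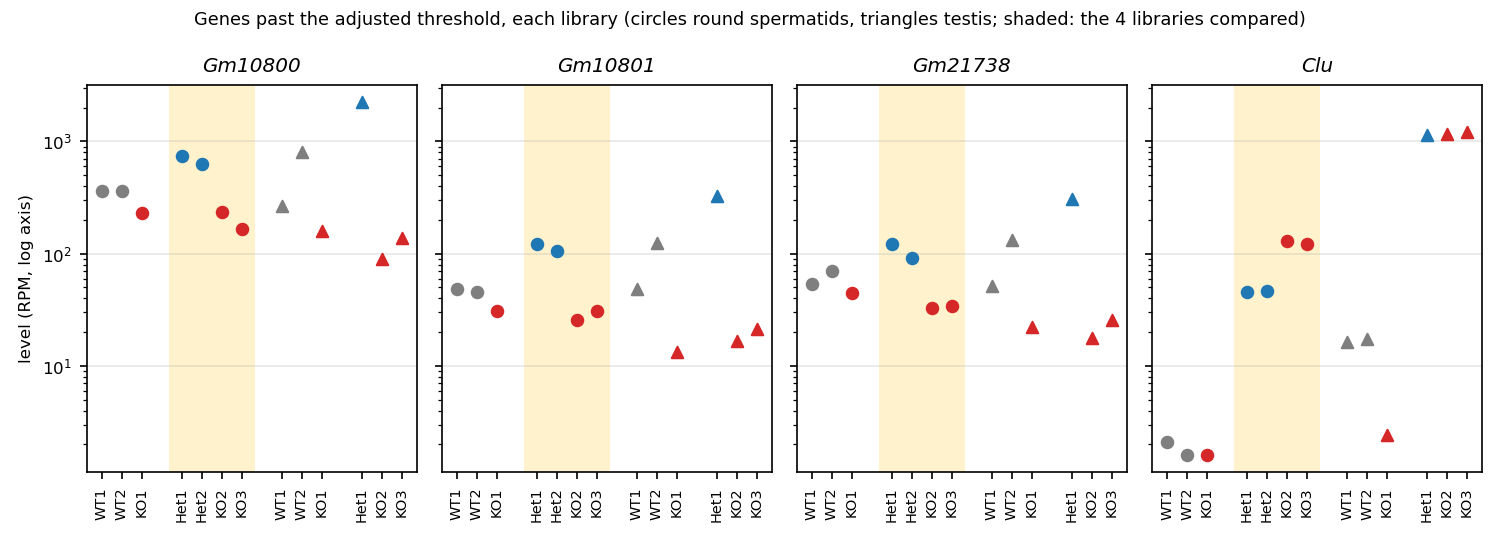
Level in RPM (log axis) of the 4 genes past the adjusted threshold in every library, circles for round spermatids and triangles for testis, blue for Het, red for KO and grey for WT. Gm10800, Gm10801 and Gm21738 lie lower in KO2 and KO3 than in Het in both preparations. Clu is higher in the sorted KO2 and KO3 cells (129 and 122 RPM against 45.4 and 46.1). In testis Clu is alike in Het1, KO2 and KO3 (1149 to 1204 RPM). It is far lower in the testis libraries WT1 (16.3 RPM), WT2 (17.5 RPM) and KO1 (2.44 RPM).

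Long genes had lower values in KO2 and KO3, and the difference grew with the genomic span of the gene from first to last base. The median difference was 0.06 for genes under 10 kb, 0.03 at 10 to 30 kb, -0.04 at 30 to 100 kb, -0.21 at 100 to 300 kb, -0.52 at 300 kb to 1 Mb and -0.82 over 1 Mb. Among the 539 genes of 300 kb to 1 Mb, 163 (30.2%) were lower at an unadjusted p under 0.05, and among the 60 genes over 1 Mb 43 (71.7%) were, with 0 higher in either class. No long gene passed the adjusted threshold. The order of the classes was kept in protein-coding genes with a mean of at least 5 RPM, with medians of 0.08 under 10 kb and -0.79 over 1 Mb.

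The gradient was also present in libraries the comparison does not use. In KO1 compared with WT round spermatids the median was -0.10 under 10 kb and -0.60 over 1 Mb, and in KO2 and KO3 against Het1 testis it was 0.10 and -0.56. Of the 60 genes over 1 Mb, 51 were lower in all 3 comparisons, which share no library with each other. Across genes, Spearman's rho between span and the difference was -0.26 in the sorted KO2 and KO3 cells, -0.11 for KO1 and -0.28 in testis; genes within a library are not independent replicates. Removing a loess curve on span from each library took the gradient out by construction (-0.04 over 1 Mb).

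**Figure D2:**
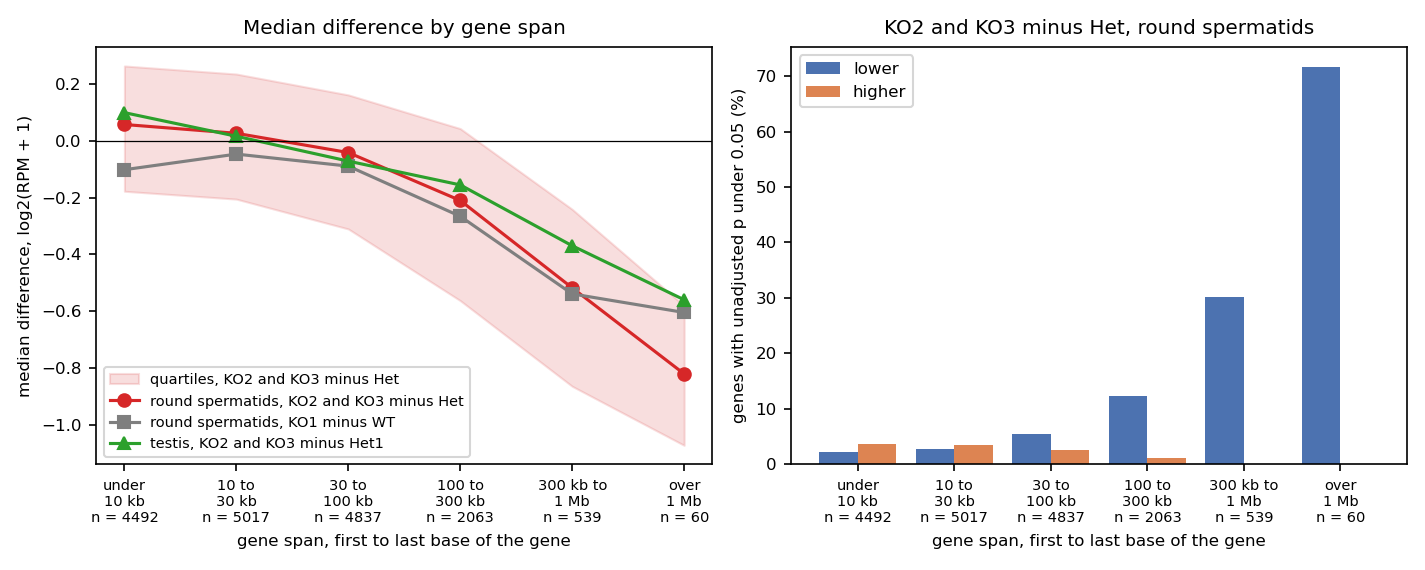
Left, median KO minus control difference on the log2(RPM + 1) scale by gene span in 3 comparisons, with the quartiles of the KO2 and KO3 against Het comparison shaded. Right, percent of genes in each class with an unadjusted p under 0.05 in KO2 and KO3 against Het round spermatids. Medians decline from 0.06 under 10 kb to -0.82 over 1 Mb, and 71.7% of the longest class are lower.

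Not every long gene followed. Spans are from the gene coordinates in the deposited table. Galnt2l, Dmd, Prkg1 and Fgfr2 were the 4 genes over 1 Mb whose difference was not negative. Galnt2l was at 2764 and 2501 RPM in Het against 3045 and 2664 RPM in KO, and Fgfr2, a receptor for fibroblast growth factors, at 1247 and 1163 RPM against 1261 and 1164 RPM. The groups overlapped for both. By contrast Ctnna3, an alpha-catenin, was at 91.4 and 122 RPM in Het against 61.5 and 71.6 RPM in KO. Cntnap2, a neuronal cell adhesion gene, was at 118 and 124 RPM against 91.9 and 82.8 RPM.

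Many of the longest genes encode synaptic adhesion proteins, receptors and ion channels, which are better known from neurons than from spermatids. In a list of such genes 50 of 77 tested were lower at an unadjusted p under 0.05 and 0 were higher, against 5.65% and 2.89% of all genes, with a median of -0.83. Their summed level was 1950 and 2000 RPM in Het1 and Het2 and 1337 and 1158 RPM in KO2 and KO3. The list's median was -0.62 in KO1 against WT and -0.57 in testis, and it was -0.11 once span was removed. None of its members passed the adjusted threshold.

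Fgf14, which encodes an intracellular regulator of sodium channels, was at 62.1 and 84.2 RPM in Het against 32 and 17.1 RPM in KO (difference -1.59, SE 0.28, limma adjusted p = 0.0952). Its WT levels were 76.5 and 70.7 RPM and its KO1 level 26.2 RPM, so all 3 KO libraries lay below all 4 others. It passed the threshold among genes with a mean of at least 5 RPM, with centred libraries, and without KO2 or KO3, but its limma adjusted p was 0.975 without Het1 and 0.9998 without Het2, and 0.317 once span was removed, where its difference was -0.95. Kcnip4, a potassium channel-interacting protein, was at 21.6 and 18.2 RPM against 5.04 and 4.54 RPM. Opcml, a cell adhesion protein anchored in the membrane by a lipid, was at 16 and 19 RPM against 5.04 and 5.47 RPM, with 2.68 RPM in KO1. Grm5, a glutamate receptor, was at 5.99 and 6.10 RPM against 0.644 and 0.852 RPM, with 5.43 and 8.14 RPM in WT and 0.956 RPM in KO1. Lrrc4c, Dgkb and Cntnap5a showed the same order of Het above KO2 and KO3, by 1.79, 1.58 and 1.41 on the log2 scale, without passing the adjusted threshold. The plot of named genes shows that for Fgf14, Opcml and Grm5 the KO1 library lay on the KO side.

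Psme4 and Cul3, genes of protein turnover that are abundant in spermatids, stood on the lower side without passing the adjusted threshold. Psme4, which encodes the proteasome activator PA200 that acts in histone removal in spermatids, was at 521 and 492 RPM in Het against 330 and 292 RPM in KO (difference -0.71, SE 0.13, limma adjusted p = 0.119). The WT libraries were at 685 and 646 RPM and KO1 at 346 RPM, so no KO library reached a Het or WT level. Cul3, the scaffold of a family of ubiquitin ligases, was at 143 and 150 RPM against 101 and 94.7 RPM. Of 32 genes of the proteasome and its activators Psme4 was the 1 lower at an unadjusted p under 0.05, with 0 higher and a median of 0.08. In the list of testis ubiquitin ligases 3 of 31 (9.68%) were lower at an unadjusted p under 0.05, against 5.65% of all genes, and 0 higher, with a median of -0.07. Fsip2, a fibrous sheath gene, was at 651 and 656 RPM against 549 and 428 RPM.

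Ptprc, which encodes the leukocyte surface phosphatase CD45, had 93 and 56 reads in Het1 and Het2 and 0 and 2 reads in KO2 and KO3. That is 6.19 and 5.17 RPM against 0 and 0.142 RPM, where 0 reads in KO2 allow up to 0.176 RPM. The WT libraries had 83 and 44 reads and KO1 had 2, so every control library was at 2.16 RPM or above and every KO library at 0.142 RPM or below. Its limma adjusted p was 0.0952, and in testis the Het1 library was at 1.06 RPM and KO2 and KO3 at 2.04 and 1.65 RPM. Most other leukocyte genes had the opposite sign: of 16 macrophage and leukocyte genes tested, described below, 13 differences were positive and 3, with Ptprc, negative.

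**Figure D3:**
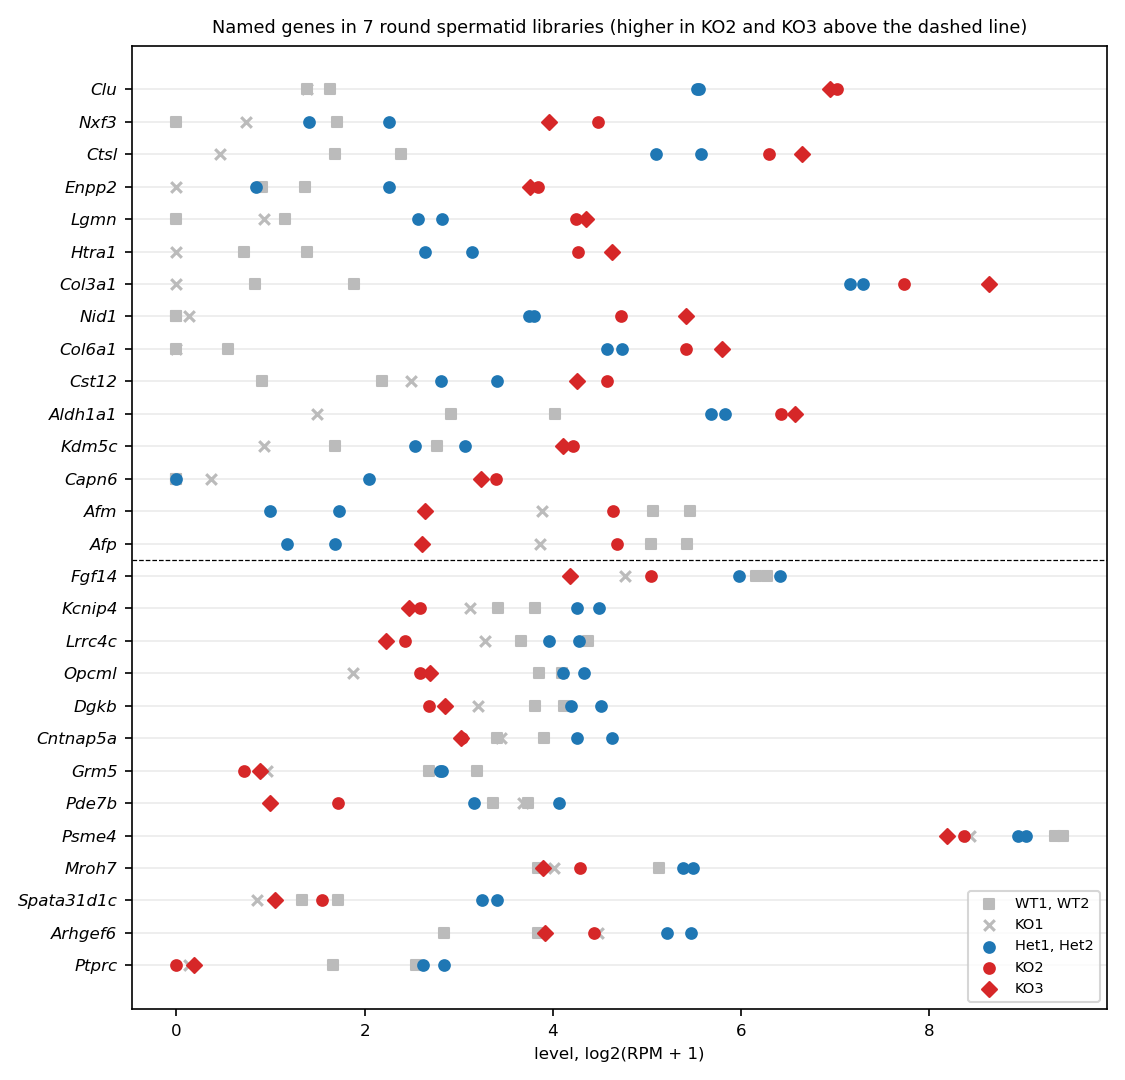
Level on the log2(RPM + 1) scale of named genes in the 7 round spermatid libraries: blue circles Het1 and Het2, red circles KO2, red diamonds KO3, grey squares WT, grey crosses KO1. Above the dashed line KO2 and KO3 lie above Het. WT and KO1 are low there for most genes, though Aldh1a1 is at 15.2 and 6.57 RPM in WT. For Afm and Afp they lie above Het. Below the line KO2 and KO3 lie under Het, with Ptprc at 0 and 0.142 RPM in KO2 and KO3.

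On the higher side stood genes of somatic cells. Clu, a Sertoli cell gene for the secreted chaperone clusterin, was at 45.4 and 46.1 RPM in Het1 and Het2 and at 129 and 122 RPM in KO2 and KO3. It was 2.74-fold higher (difference 1.43, SE 0.19, limma adjusted p = 0.00435), and the call was lost without Het1 or Het2 and in a fit of all 7 libraries. Among the testis libraries Clu was low in WT1 (16.3 RPM), WT2 (17.5 RPM) and KO1 (2.44 RPM). Clu was at 1149 RPM in the testis library of Het1 and 1159 and 1204 RPM in those of KO2 and KO3. The sorted Het1 library was thus at 3.95% of the level of the Het1 testis library, and those of KO2 and KO3 at 11.1% and 10.1% of the testis libraries of the same number, though the labels do not say that a number marks the same animal. In bulk samples fewer cells of a type and less RNA per cell cannot be told apart.

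Of 29 genes of the Sertoli list that were tested, 11 (37.9%) were higher at an unadjusted p under 0.05 and 2 (6.90%) were lower, against 2.89% and 5.65% of all genes. The median was 0.74 against -0.02 over all genes, and Clu was the 1 member past the adjusted threshold. The list's median in KO1 against WT was -0.29, with 21 of the 29 differences negative and 7 positive. The summed level of its 34 listed members was 276 and 308 RPM in Het against 515 and 525 RPM in KO2 and KO3. It was 107 to 117 RPM in WT and 65.6 RPM in KO1. Of 6 defining Sertoli markers none was at 0 in all 4 libraries and Amh was below 1 RPM in each; their sum was 55.3 and 52.5 RPM in Het against 143 and 136 RPM in KO. Clu makes up most of that sum: Wt1, a Sertoli transcription factor, was at 5.86 and 2.31 RPM against 5.33 and 4.26 RPM, with overlapping groups. Cldn11, the claudin of the blood-testis barrier, was at 1.80 and 2.77 RPM against 6.27 and 8.16 RPM. The FSH receptor gene Fshr and the tight junction gene Tjp1 were the 2 lower members.

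Of 19 matrix metalloproteases and cathepsins, proteases of the extracellular matrix and the lysosome, 9 (47.4%) were higher at an unadjusted p under 0.05 and 0 lower, against 2.89% and 5.65% of all genes. The median was 0.72, 5 of the 19 differences were negative, and none passed the adjusted threshold. Ctsl, the cathepsin L gene, which Sertoli cells also express, was at 33.2 and 46.6 RPM in Het against 77.9 and 99.2 RPM in KO (difference 1.14, SE 0.23, limma adjusted p = 0.167). Lgmn, the asparaginyl protease legumain, was at 4.93 and 6.10 RPM against 17.9 and 19.4 RPM. Ctsa was at 8.32 and 7.48 RPM against 19.4 and 19.7 RPM, and Ctsd, the cathepsin D gene, at 21.7 and 14.6 RPM against 34.7 and 30.2 RPM. In testis the differences of these 4 genes were between -0.20 and 0.03, and the list's median was 0.02. Among inhibitors of proteases, the 11 WFDC and Kunitz inhibitors tested had a median of 0.22 with 0 at an unadjusted p under 0.05, and the 31 serpins, cystatins, Kazal inhibitors and TIMPs had a median of -0.02, with 6 higher (19.4%) and 1 lower. Of these, the cystatin gene Cst12 was at 9.59 and 6.0 RPM in Het against 22.9 and 18.2 RPM in KO, and Serping1, the C1 inhibitor of the complement cascade, at 46.8 and 47.7 RPM against 74.7 and 80.9 RPM.

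Of 30 stromal and matrix genes tested, 11 (36.7%) were higher at an unadjusted p under 0.05 and 0 lower, against 2.89% and 5.65% of all genes. The median was 0.65, 4 of the 30 differences were negative, and none passed the adjusted threshold. Their summed level was 995 and 905 RPM in Het1 and Het2, 1164 RPM in KO2 and 1828 RPM in KO3, and 48.5 to 61.8 RPM in WT. Col3a1, a fibrillar collagen gene, was at 157 and 142 RPM in Het, 212 RPM in KO2 and 398 RPM in KO3 (difference 0.95, SE 0.22, limma adjusted p = 0.275), and Col1a1 at 38.5 and 42.2 RPM, 55.8 RPM and 126 RPM. Without KO2 the list's median was 0.86, and without KO3 it was 0.39. In testis KO3 was likewise the highest for Col3a1, at 499 RPM, while KO2, at 273 RPM, lay below Het1, at 294 RPM. By library number, the sorted Col3a1 level was 53.3% of the testis level in Het1, 77.5% in KO2 and 79.7% in KO3. Outside the list, Htra1, a secreted serine protease, was at 7.86 and 5.27 RPM in Het against 18.3 and 23.8 RPM in KO, and Nid1, a basement membrane protein gene, at 12.5 and 12.9 RPM against 25.4 and 41.9 RPM.

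Markers of other somatic types were less uniform. Of 16 macrophage and leukocyte genes tested, 7 (43.8%) were higher at an unadjusted p under 0.05 and 1, Ptprc, was lower, against 2.89% and 5.65% of all genes; the median was 0.90, and none passed the adjusted threshold. The summed level of the list was 1205 and 1197 RPM in Het against 1269 and 1280 RPM in KO. Its 7 defining markers overlapped between the groups, at 22.6 and 31.1 RPM against 33.9 and 28.2 RPM. Mrc1, the macrophage mannose receptor, was at 4.73 and 0.462 RPM in Het against 12.1 and 7.95 RPM in KO, a wide spread between Het1 and Het2. The 6 defining Leydig markers summed to 48.8 and 52.4 RPM in Het, 19.9 RPM in KO2 and 73.3 RPM in KO3, on both sides of Het. The 5 endothelial markers were at 11.1 and 4.99 RPM against 3.93 and 2.56 RPM. How far other cells in the sort bear on the higher genes was not tested.

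**Figure D4:**
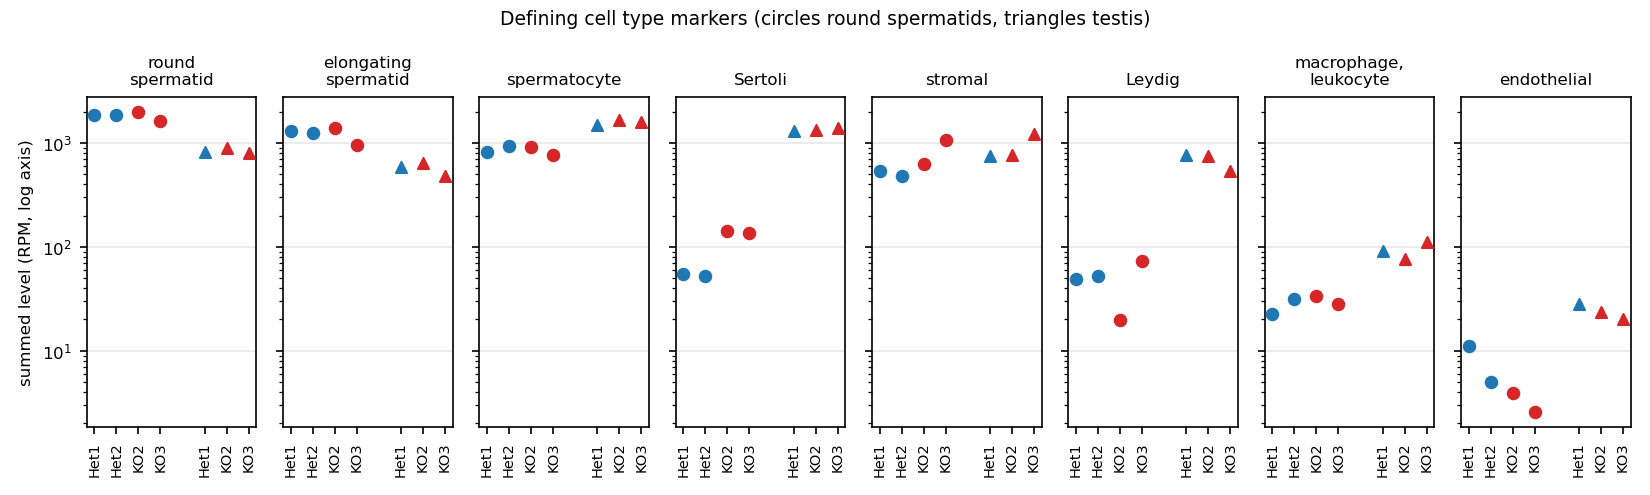
Summed level in RPM (log axis) of the defining markers of 8 cell types in the 4 round spermatid libraries (circles) and the testis libraries Het1, KO2 and KO3 (triangles), blue for Het and red for KO. Sertoli markers sum to 143 and 136 RPM in sorted KO2 and KO3 against 55.3 and 52.5 RPM in Het and are alike in testis, while Leydig markers in KO2 and KO3 lie on either side of Het.

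Several higher genes lie on the X chromosome, most of which is silenced in spermatocytes and remains largely repressed in round spermatids. Of 622 X-linked genes tested, 34 (5.47%) were higher at an unadjusted p under 0.05, against 457 of 16341 autosomal genes (2.80%). Nearly as many X-linked genes, 31 (4.98%), were lower, against 927 autosomal genes (5.67%). The median over X-linked genes was 0.01. Nxf3, an mRNA export factor gene, was at 1.67 and 3.79 RPM in Het against 21.3 and 14.6 RPM in KO (difference 2.38, SE 0.42, limma adjusted p = 0.0952). It passed with centred libraries and after removal of span. It did not pass with a pseudocount of 0.1 RPM (limma adjusted p = 0.223) or in a fit of all 7 libraries (limma adjusted p = 0.416). Its difference was 1.96 without Het1 and 2.81 without Het2. Kdm5c, a histone H3K4 demethylase gene, was at 4.80 and 7.39 RPM against 17.6 and 16.3 RPM. Capn6, a calpain gene, was at 0 and 3.14 RPM against 9.55 and 8.45 RPM. In testis Het1, KO2 and KO3, Nxf3 was at 111 to 128 RPM and Capn6 at 34.3, 28.7 and 44.5 RPM. These 2 genes were thus more abundant in whole testis than in the sort. Kdm5c was nearer, at 15.5, 21.3 and 25.8 RPM, with the Het1 testis library below sorted KO2 and KO3.

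Afm and Afp, the afamin and alpha-fetoprotein genes of the albumin cluster on chromosome 5, had nearly the same level as each other in each round spermatid library. Afm was at 0.999 and 2.31 RPM in Het1 and Het2, 24 RPM in KO2 and 5.25 RPM in KO3, and Afp at 1.27 and 2.22 RPM, 24.7 RPM and 5.11 RPM. The ratio of Afm to Afp ran from 0.789 to 1.04 over the 7 round spermatid libraries. WT libraries were at 42.9 and 32.6 RPM for Afm and KO1 at 13.8 RPM, so the Het libraries were the lowest of the 7. Whether the 2 genes share reads was not tested.

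Lists of the spermatid programme had medians near 0 over both KO libraries together. The median difference was -0.07 over 35 round spermatid markers, -0.05 over 33 acrosome and fertilization genes, -0.02 over 28 genes of the piRNA pathway and chromatoid body, -0.02 over 21 regulators of the CREM network and -0.10 over 36 meiotic genes. At an unadjusted p under 0.05, these 5 lists together held 2 higher and 5 lower entries out of 153 tested, against 2.89% and 5.65% of all genes. Among 52 axoneme genes of the flagellum 6 were lower (11.5%, against 5.65% of all genes) and 0 higher, and all 6 encode dynein heavy chains. The median of this list was -0.06, but 0.01 with centred libraries and 0.05 once span was removed.

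Some of these medians average KO libraries that differed. The median over round spermatid markers was 0.03 in KO2 and -0.26 in KO3, and that over meiotic genes 0.02 and -0.33. In the list of histone to protamine exchange 3 of 25 genes were lower (12%) and 0 higher at an unadjusted p under 0.05. The shares over all genes were 5.65% and 2.89%. The median of this list was -0.19, with 0.09 in KO2 and -0.40 in KO3.

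Late spermatid genes separated KO3 from KO2. The median over 26 elongating spermatid markers was 0.06 in KO2 and -0.43 in KO3, each against the mean of Het. Prm2, a protamine gene, was at 111 and 89.5 RPM in Het1 and Het2, 97.4 RPM in KO2 and 35.0 RPM in KO3. Tnp1, a transition protein gene, was at 47.8 and 50.1 RPM in Het, 69.0 RPM in KO2 and 19.7 RPM in KO3, and Prm1 at 49.1 and 42.8 RPM, 54.2 RPM and 13.1 RPM. For these 3 genes KO2 lay within or above the Het range and KO3 below it, so no common KO difference was shown. Cytosolic ribosomal protein genes were also lower in KO3 than in KO2, but with KO3 near Het: their median was 0.51 in KO2 and 0.02 in KO3, with sums of 8505 and 7548 RPM in Het, 10839 RPM in KO2 and 8197 RPM in KO3. Respiratory chain subunit genes had medians of 0.37 in KO2 and 0.06 in KO3.

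Immune and stress lists are read against 2.89% higher and 5.65% lower genes overall at an unadjusted p under 0.05. The median was 0.08 over 16 interferon-stimulated genes (1 higher, 6.25%, and 0 lower), 0.22 over 22 cytokines, chemokines and receptors (2 higher, 9.09%, and 0 lower), 0.03 over 30 chaperone genes of the endoplasmic reticulum (0 in either direction) and 0.16 over 24 immediate-early and heat-shock genes (4 higher, 16.7%, and 0 lower). Among 22 complement genes 5 were higher (22.7%) and 1 lower, with Clu and Serping1 counted among the higher, and the median was 0.10. No list but the Sertoli and complement lists, which both hold Clu, contained a gene past the adjusted threshold.

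**Figure D5:**
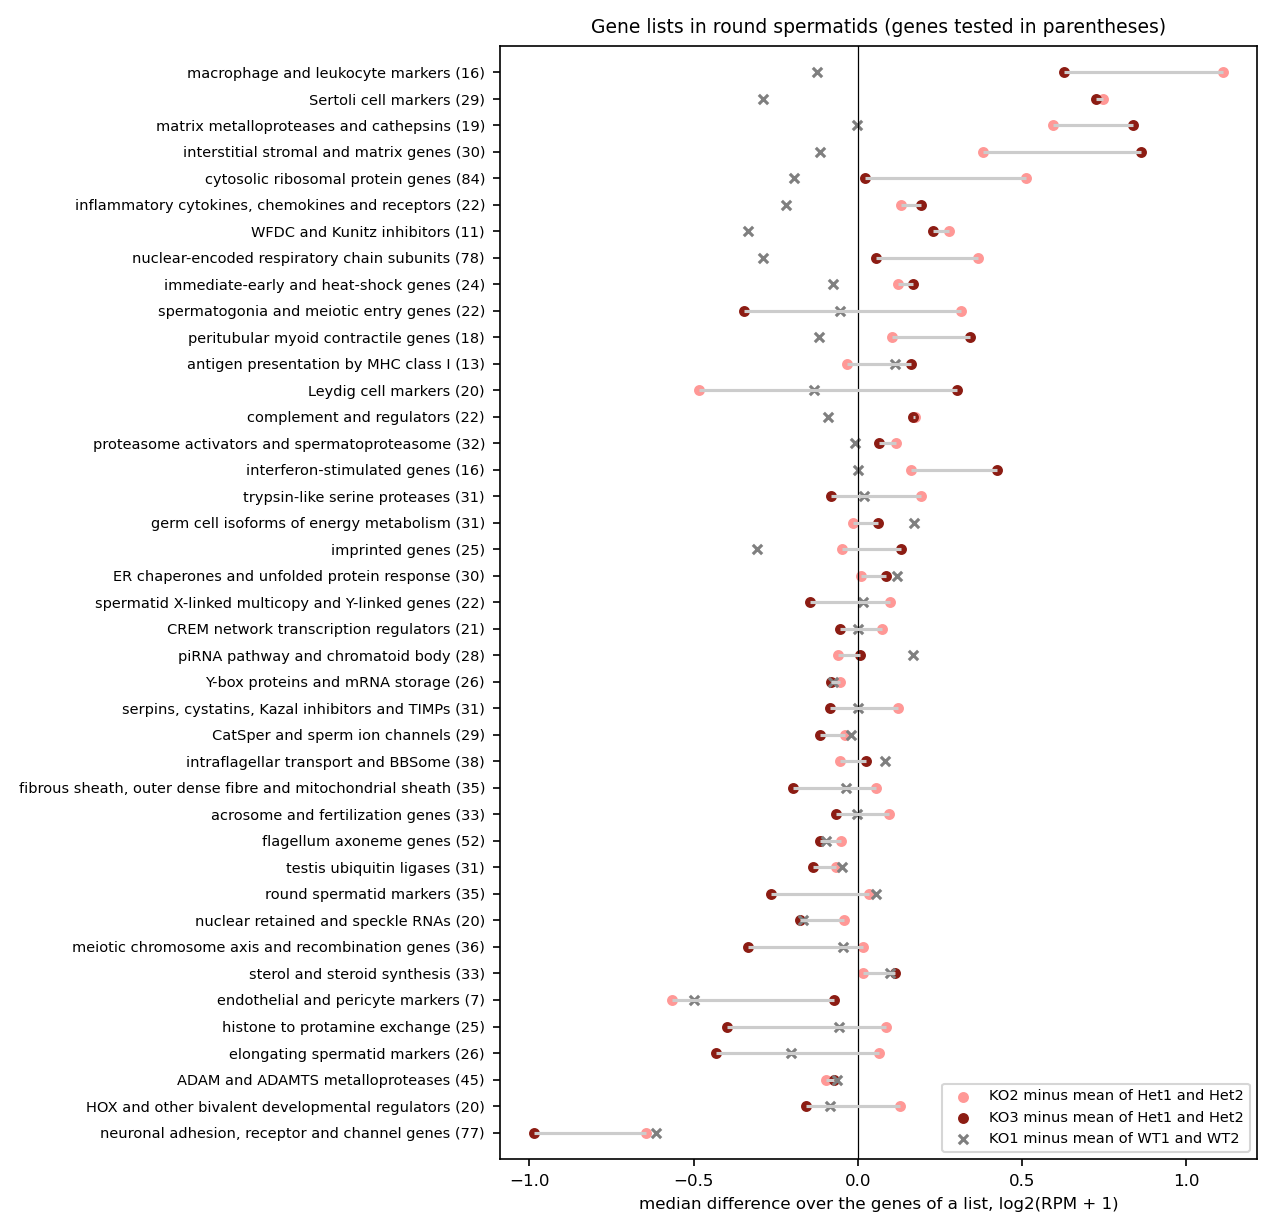
Median difference over the genes of each list on the log2(RPM + 1) scale, for KO2 (light red) and KO3 (dark red) against the mean of Het1 and Het2, and for KO1 against the mean of WT (grey crosses). Sertoli markers lie near 0.74 in both KO2 and KO3 but at -0.29 in KO1. The neuronal list lies below -0.6 in all 3 KO libraries, while elongating spermatid markers are at 0.06 in KO2 and -0.43 in KO3.

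The KO difference of these libraries was set against that of KO1 and WT, which share no library with them. A test of the difference between both made 0 calls in limma (0% of 18075 genes tested, 1348 at an unadjusted p under 0.05, smallest adjusted p 0.452). It made 2 calls without WT2 and 0 without any other library. Of the 961 genes lower in KO2 and KO3 at an unadjusted p under 0.05, 741 (77.1%) were also lower in KO1 than in WT, against 64.4% of all genes with a negative difference. Of the 491 higher genes, 42.2% were higher in KO1, against 46.0% of all genes with a positive difference. The direction shared with KO1 was therefore seen on the lower side, where Fgf14, Psme4, Opcml, Grm5 and Ptprc lie. Not every lower gene shared it: in KO1 minus WT, Arhgef6 was at 1.14 and Pde7b at 0.13. The median in KO1 against WT was -0.50 over the lower genes and -0.04 over the higher genes, where Clu, Ctsl and Col3a1 lie. It was -0.12 over all genes tested, so a lower value in KO1 was common at large.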

How the data were processed

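The authors deposited a table of log2 RPM (reads of a gene scaled to library size) for 30479 genes and 13 libraries. Per the submitters' processing notes, HISAT2 2.1.0, Trim Galore 0.6.6 and FastQC 0.11.8 were used with build mm10; for read counting and annotation, tools were not given in the sources used here. The deposited log2 values were turned back to RPM, with the column minimum, which stands for no read, set to 0; 99.925% to 99.977% of values in the 4 libraries were whole reads within 0.01 read. Tests were run on log2(RPM + 1), a pseudocount of 1, for genes reaching 1 RPM in 2 or more of the fitted libraries, with limma 3.58.1 in R 4.3.3 (lmFit, eBayes with trend), two-sided, calling Benjamini-Hochberg adjusted p under 0.05. KO2 and KO3 against Het used 4 libraries, the testis contrast 6 and the difference of KO differences 7. The fit was tested on simulated data. Reads carry no molecular identifiers, so the limit of 3 reads for a gene at 0 covers counting error only. Spans came from the deposited coordinates, and gene types and transcripts from GENCODE M21, in which 96.82% of symbols were found.

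The libraries, genes, 43 lists, tests and alternatives were chosen with earlier results of these data known. Named genes were all those past the threshold and, to reach 15 in each direction, those of smallest unadjusted p with a mean of at least 5 RPM and no overlap of groups, without predicted genes, plus up to 4 members and 2 abundant members of each list; genes over 1 Mb, Gm33838 and late spermatid genes were added after values were seen. Alternatives were another pseudocount, filter, centring, set of libraries, test, threshold, correction for span, and leaving out each library. A gene that the rule would name is not reported here.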

Additional observations from a re-analysis of the deposited data

Results flagged for a closer look

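Of the genes named for the comparison, 15 in each direction, 9 had KO2 and KO3 on one side of Het and KO1 on the opposite side of WT. Most were named because KO2 and KO3 did not overlap Het, so only the side of the single KO1 library was free. Some such cases arise without any difference, and the number was not tested. In none of the 9 did the test of the difference pass the threshold (limma adjusted p of 0.452 to 0.525). The KO2 and KO3 difference minus the KO1 difference, on the log2(RPM + 1) scale, was 2.71 for Ctsl, 3.38 for Enpp2, a secreted lysophospholipase, and 2.61 for Htra1. It was 2.31 for Col3a1, 3.66 for Afm, 3.59 for Afp, 2.72 for Aldh1a1, a retinaldehyde dehydrogenase gene, and 2.66 for Kdm5c. For Arhgef6, a guanine nucleotide exchange factor gene, it was -2.30. WT and KO1 levels of Ctsl, Enpp2, Htra1 and Col3a1 were at most 4.22 RPM; with few reads there, the sign of the KO1 difference rests on low values. KO1 is a single library.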

How the results depend on the processing

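Counts of calls in KO2 and KO3 against Het were 3 to 6 with the deposited log2 values, a pseudocount of 0.1 RPM, a filter at a mean of 5 RPM or none, centring, quantile normalization, all 7 libraries, voom, quality weights, a 2-fold minimum and protein-coding genes only; the last and voom without TMM scaling were added after seeing the data. The 4 called genes were kept in each, except that the fit of all 7 libraries kept 3. Removing gene span gave 9 calls, and an adjusted p under 0.1 gave 7. Lower genes were 41.1% of those at an unadjusted p under 0.05 after removal of span, against 66.2%. Leaving out each library gave 0 to 461 calls, and for the difference of KO differences 0 to 2; the pair left decides the spread in such a fit, and the lone sample is assumed to vary like the other group. The testis count stayed at 0 under the 5 alternatives run. Wfdc15a ran from -0.50 to -0.02 with libraries left out.

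Some values that did not pass in the fit of 4 libraries turned in sign; of these genes, Fgfr2 and Dmd passed after removal of span, Prm1 and Tnp1 without KO2, and Ctnna3 without KO3. With each library left out, Prm1 ran from -1.74 to 0.24, Tnp1 from -1.27 to 0.49, Fgfr2 from -0.050 to 0.066, Dmd from -0.019 to 0.28 and Prkg1 from -0.014 to 0.064, with the lowest value without KO2 and the highest without KO3. After removal of span, Cntnap2 stood at 0.45, Ctnna3 at 0.17 and Agbl4 at 0.62, the last 3 by the construction of that correction. edgeR and TMM scaling were not run on the recovered reads. No paired analysis was possible because the groups share only replicate number 2. With 2 libraries a group, genes under about 1 RPM were not tested.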

Other observations

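Olfactory and vomeronasal receptor genes, sets chosen after seeing the data, had low levels in every library. Among the sorted round spermatid libraries, to which the values below belong, their sums were lower in KO. The 1138 olfactory receptor genes of the table summed to 244 and 249 RPM in Het1 and Het2, and to 153 and 137 RPM in KO2 and KO3. Of all genes in the table, 23092 and 22231 had a read in Het1 and Het2 and 21638 and 21498 in KO2 and KO3. Of the olfactory receptor genes, a read was found for 342 and 301 in Het and for 166 and 188 in KO. The WT libraries summed to 275 and 287 RPM and KO1 to 178 RPM, so the 3 KO libraries lay below the 4 others. The 350 vomeronasal receptor genes summed to 112 and 108 RPM in Het against 60.8 and 49.5 RPM in KO, with 86.3 and 113 RPM in WT and 74.6 RPM in KO1.

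Among noncoding classes the median difference was -0.22 over 1325 lincRNA genes and -0.05 over 1266 antisense genes, against -0.02 over all genes tested; without strand, reads of an antisense gene and its partner cannot be told apart.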
